A study of Homo sapiens with 22 samples.

Results

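The 2 SETD2 rescue clones of RPTEC were set against 4 lentivirally transduced wild-type (WT) lines grown in the same serum. Libraries were chosen by their labels alone, and 12 of the 22 libraries of the series entered this comparison, 4 from the rescue clones and 8 from the transduced lines. RPTEC are human renal proximal tubule epithelial cells immortalized with hTERT. The study knocked out SETD2 in these cells, put it back, and measured RNA by sequencing. The comparison asks which genes remain apart from WT after SETD2 is expressed again, when rescue and WT cells were both fed 10% serum.

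Rescue1 and Rescue2 (2 libraries each) are SETD2 KO cells that received FLAG-tagged full-length SETD2 by lentivirus and were grown out from single colonies under blasticidin. The eGFP, OCT2, PRRX1 and SOX2 lines (2 libraries each) are WT RPTEC given a lentivirus with eGFP as the control, or with 1 of the transcription factors OCT2 (gene POU2F2), PRRX1 and SOX2, and kept as bulk populations selected with puromycin. The paper reports that the lines given a transcription factor migrated, invaded and formed spheroids more than the eGFP line. None of these 12 libraries received TGF-β. Untreated WT, KO1 and KO2 (2 libraries each, 2% serum) were used to define which genes changed when SETD2 was lost. KO1 and KO2 are clones with frameshifts in SETD2, and the clone names in the study's tables place both rescue clones under the same KO clone. Clonal origin, selection drug, vector, a past without SETD2 and SETD2 RNA above the WT level all separate the rescue clones from the transduced lines. These cannot be told apart here. Nothing in the labels says that the 2 libraries of a line came from separate cultures, so the p-values below measure the spread between libraries, which may be technical. Taken as lines, 2 clones against 4 lines allow 15 splits, and an exact permutation test could not go below p = 0.0667.

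SETD2 is the methyltransferase that places trimethylation on lysine 36 of histone H3 (H3K36me3) over the bodies of transcribed genes, and it is frequently mutated in clear cell renal cell carcinoma. In epithelial to mesenchymal transition (EMT), epithelial cells lose junction proteins and take up the matrix, motility and signalling genes of mesenchymal cells. A gene that was switched during the time without SETD2 may or may not switch back when the enzyme returns. The rescue clones show where such genes stand after its return, together with the other differences named above.

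The SETD2 guide is shown because every rescue library descends from cells cut at this site, with the guide in lower case and its PAM in capitals. It lies in the coding part of exon 3 of SETD2 at chr3:47122997-47123019 (GRCh38, plus strand, whereas SETD2 is on the minus strand).
SETD2 guide: tagaatatgatgaccctcgtCGG

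Values are normalized counts per library, recovered from the deposited log2 values, and differences are in log2(normalized count + 1) from limma. A gene was called when its Benjamini-Hochberg adjusted p was under 0.05 and its log2 difference was beyond 1 in either direction. A group was taken to be at the floor when none of its libraries was above 3 normalized counts, and folds against it are lower bounds. Total normalized counts of the 12 libraries were 11674491 to 13042039, and the number of reads behind them is not recorded in the values. Among genes with high mean counts, duplicates of these 12 libraries differed by a median of 0.0644 (SOX2 line) to 0.115 (eGFP line) in absolute log2. The groups that define the KO change had 0.181 (untreated WT), 0.162 (KO1) and 0.0943 (KO2). The spread at low counts is not part of these medians. Levels are not divided by gene length, so they were not compared between genes.

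The labels of the rescue clones and of the PRRX1 and OCT2 lines were checked by their transgenes. SETD2 had 10240 and 10369 in Rescue1 and 10445 and 9764 in Rescue2 against 2702 to 3128 (median 2890) in the transduced lines, with 1852 and 2061 in untreated WT. All 4 rescue libraries were above all 8 transduced libraries, by 1.82 ± 0.04 (SE; adjusted p = 1.61e-13). PRRX1 was listed at 0 in all 4 rescue libraries and reached 404 and 395 in the PRRX1 line, with at most 3.19 in the other transduced lines. POU2F2 had 1251 and 1121 in the OCT2 line, 175 to 395 in the other transduced lines and 337 to 421 in rescue. The SOX2 and eGFP labels were not checked, and SOX2 was not analysed here.

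The labelled cell type held in part. VIM and KRT8, which cultured renal epithelial cells express together, were high in all 12 libraries (102667 to 105902 and 22164 to 25190 in rescue, 78518 to 89464 (median 87735) and 9055 to 11287 (median 10530) in the transduced lines). LRP2, the endocytic receptor megalin, and HNF4A, a master factor of the mature proximal tubule, were at 0 in all 12. Of markers of other cells, the 10 endothelial genes summed to 21.1 to 165.5 normalized counts in rescue and 3.31 to 40.1 in the transduced lines, and the 10 haematopoietic genes to 32.2 to 98.7 and 108.2 to 182.6. Of 5 endothelial genes tested, 3 were called higher, CDH5 (5.75 to 83.8 against 0 to 17.6 (median 3.79)), KDR (1.62 to 42.0 against 0 to 0.984 (median 0)) and TEK (0 to 14.8 against 0 to 2.25 (median 0.693)), and PECAM1 was listed at 0 in the rescue libraries. CDH5 and TEK overlapped and lost their calls without Rescue1 replicate 2 or Rescue2 replicate 2, TEK also without Rescue1 replicate 1. Of 4 haematopoietic genes tested, 2 were lower. Of 8 fibroblast and pericyte genes tested 1 was higher and 2 lower, with sums of 858 to 1620 in rescue and 1995 to 3887 in the transduced lines, and of 7 neural genes 2 were higher and none lower, with sums of 4474 to 7035 and 3119 to 3528. The part of such cells in the results below was not tested.

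Rescue clones differed broadly from the transduced WT lines. Of 14585 genes tested, 970 (6.65%) were called higher and 1220 (8.36%) lower in rescue, and 671 (4.60%) and 826 (5.66%) of these had no overlap between the 4 rescue and the 8 transduced libraries. Rescue1 alone gave 855 (5.86%) higher and 1145 (7.85%) lower genes, and Rescue2 alone 791 (5.42%) and 959 (6.58%). The clones differed from one another at 145 genes (0.994%), of which 84 (0.576%) were higher and 61 (0.418%) lower in Rescue1. Each transduced line against the other 3 gave 8 genes for eGFP (0.0549%), 3 for SOX2 (0.0206%) and 1 each for OCT2 and PRRX1 (0.00686%). Against the eGFP line alone, 944 genes were higher and 971 lower.

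**Figure D1:**
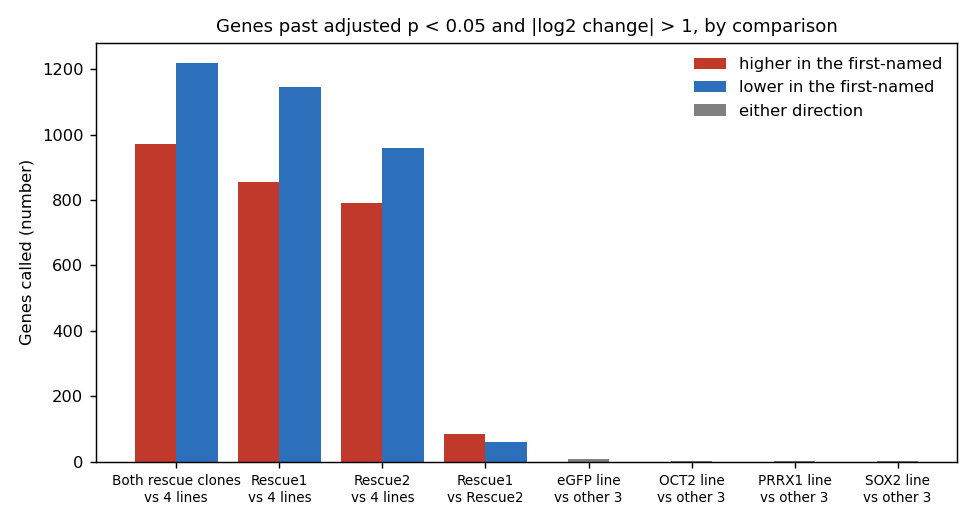
Number of genes called (y axis) in each comparison among the 12 libraries in 10% serum, with red and blue bars for genes higher and lower in the first-named group and grey bars for both directions together. The bars of rescue against the transduced lines stand at 970 and 1220, those of Rescue1 against Rescue2 at 84 and 61, and those of the transduced lines among themselves at 8 or fewer.

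The genes furthest above the transduced lines included a collagen, adhesion molecules and a membrane mucin. COL5A1 (chr9:134641803-134844843, GRCh38), the α1 chain of type V collagen, had 8979 and 8555 in Rescue1 and 5237 and 4572 in Rescue2. In the transduced lines it had 4.41 to 36.8 (median 14.3), and in untreated WT 35.8 and 5.42. The groups did not overlap, and the difference was 8.89 ± 0.35 (SE; adjusted p = 4.6e-11). PDPN (chr1:13583465-13617957), the membrane mucin podoplanin, had 5724 and 5259 in Rescue1 and 4958 and 4810 in Rescue2 against 28.4 to 63.8 (median 46.1), a difference of 6.76 ± 0.20 (SE; adjusted p = 2.56e-12). CDH11 (chr16:64943753-65126112), a cadherin of mesenchymal cells, had 559.8 and 409 in Rescue1 and 496 and 569 in Rescue2 against 0 to 7.84 (median 1.44). Its lowest rescue library was far above its highest transduced library, with a difference of 7.70 ± 0.47 (SE; adjusted p = 8.19e-09). NCAM1 (chr11:112961275-113278436), the neural cell adhesion molecule, had 1070 and 904 in Rescue1 and 821 and 851 in Rescue2 against 5.71 to 21.5 (median 9.58), a difference of 6.43 ± 0.48 (SE; adjusted p = 7.24e-08).

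The next 5 genes were at the floor in all 8 transduced libraries, so their folds are lower bounds. GPR37, an orphan G protein-coupled receptor, had 233 to 294 in rescue and was at least 89.3-fold higher. AMPH, the endocytic adaptor amphiphysin, had 192 to 245 and was at least 72.4-fold higher. MCTP2 (134 to 201, at least 58.4-fold), MARK1, a microtubule affinity regulating kinase (49.8 to 162, at least 36.5-fold), and PFDN6, a prefoldin subunit (105 to 162, at least 43.5-fold), completed them. PFDN6 was also present in untreated WT (73.2 and 108) and was at 0 in 3 of the 4 KO libraries, unlike the other 4 genes. PRSS12, a secreted serine protease, had 115 to 351 against 1.06 to 3.32 (median 1.67), a difference of 6.28 ± 0.33 (SE; adjusted p = 1.4e-09).

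The genes furthest below the transduced lines included several at or near 0 in rescue. The files hold no read counts, and widely used genes are also listed at 0 in some libraries, so a 0 is given as listed. JAM3 (chr11:134069071-134152001), a junctional adhesion molecule, was listed at 0 in all 4 rescue libraries. The transduced lines had 469.8 to 861 (median 627) and untreated WT 358 and 352, so JAM3 was at least 213-fold lower in rescue (adjusted p = 3.86e-11). FOLR1 (chr11:72189558-72196323), a folate receptor of the proximal tubule, had 0 and 0 in Rescue1 and 2.58 and 12.2 in Rescue2 against 565 to 699 (median 637). That was a difference of -7.91 ± 0.27 (SE; adjusted p = 1.06e-11), with no overlap. PHYHD1, a dioxygenase, had 0 to 4.13 against 235 to 307 (median 265), IRX2, an Iroquois homeobox factor, 0 to 6.66 against 186 to 257 (median 224), and ZNF667, a zinc finger protein, 0 to 4.65 against 275 to 584 (median 313). Differences were -7.49, -7.06 and -6.89. Leaving out 1 rescue library moved PHYHD1 to between -8.08 and -6.90 and IRX2 to between -7.79 and -6.32. MTPN, myotrophin, was listed at 0 in all rescue libraries against 67.5 to 169 (median 95.5), at least 35.5-fold lower, and also at 0 in untreated WT.

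For others of the largest falls, untreated WT did not lie with the transduced lines. THY1 (chr11:119415476-119424985), a surface glycoprotein of stromal cells, had 12.1 and 5.45 in Rescue1 and 12.5 and 12.1 in Rescue2 against 1222 to 2936 (median 1997), a difference of -7.48 ± 0.22 (SE; adjusted p = 3.2e-12). Untreated WT in 2% serum had a mean of 14.7, beside the rescue libraries and far below the transduced ones. FOS, an immediate early transcription factor, had 5.99 and 15.6 in Rescue1 and 22.3 and 0 in Rescue2 against 1464 to 2215 (median 1958) and 3.47 and 1.83 in untreated WT. Its difference was -8.00 ± 0.70 (SE; adjusted p = 3.42e-07) and lay between -9.14 and -6.86 when 1 of the Rescue2 libraries was left out. CDHR1, a cadherin-related protein, had 0 to 3.72 against 446 to 717 (median 549), with 137 and 56.6 in untreated WT, between the groups. EMC10, a subunit of the endoplasmic reticulum membrane complex, had 4.04 and 3.55 in Rescue1 and 66.5 and 37.4 in Rescue2 against 1705 to 2097 (median 1955), and here untreated WT was higher still (3603 and 3226).

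The genes that SETD2 loss changed were taken as those called with the same sign in KO1 and in KO2 against untreated WT, both in 2% serum. There were 1849, 1013 higher (6.95% of genes tested) and 836 lower (5.73%). This contrast and that of rescue share no library, and serum was the same within each. Of the 1013 genes higher in KO, 205 (20.2%) were also called higher in rescue, where 6.65% of all genes were. Another 169 (16.7%) were called lower, where 8.36% of all genes were, and 639 (63.1%) were not called. Of the 836 genes lower in KO, 138 (16.5%) were also called lower in rescue, where 8.36% of all genes were. Another 104 (12.4%) were called higher, where 6.65% of all genes were, and 594 (71.1%) were not called. KO-changed genes were thus called more often than all genes in both directions, not only with the KO sign. Below, genes called with the KO sign are termed unrestored. Of these, 157 of the 205 and 98 of the 138 were called with that sign in each clone on its own.

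The approach to WT was read from a difference of differences, the residual in rescue minus the change in KO. Of the 1013 genes higher in KO, 795 (78.5%) were called as lower relative to the KO change, where 13.1% of all genes were called lower in this contrast, and 674 (80.6%) of the 836 genes lower in KO as higher, where 12.1% of all genes were called higher. The KO change that chose these genes is subtracted in this contrast, so these counts were largely fixed by the choice and are a description. Among the unrestored genes, whose residual is also a term of it, 65 of 205 (31.7%) and 34 of 138 (24.6%) were called as closer to WT, and 9 and 13 as further from it. The 95% interval of the residual lay within -1 to 1 for 338 (33.4%) of the genes higher in KO and 302 (36.1%) of those lower, against 46.7% of all genes tested. This contrast also holds the difference in serum between KO and rescue. With equal library totals the median of all genes moved from -0.02 to 0.38 here, and 68.9% of the called genes were higher against 48.0% with the deposited normalization.

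**Figure D2:**
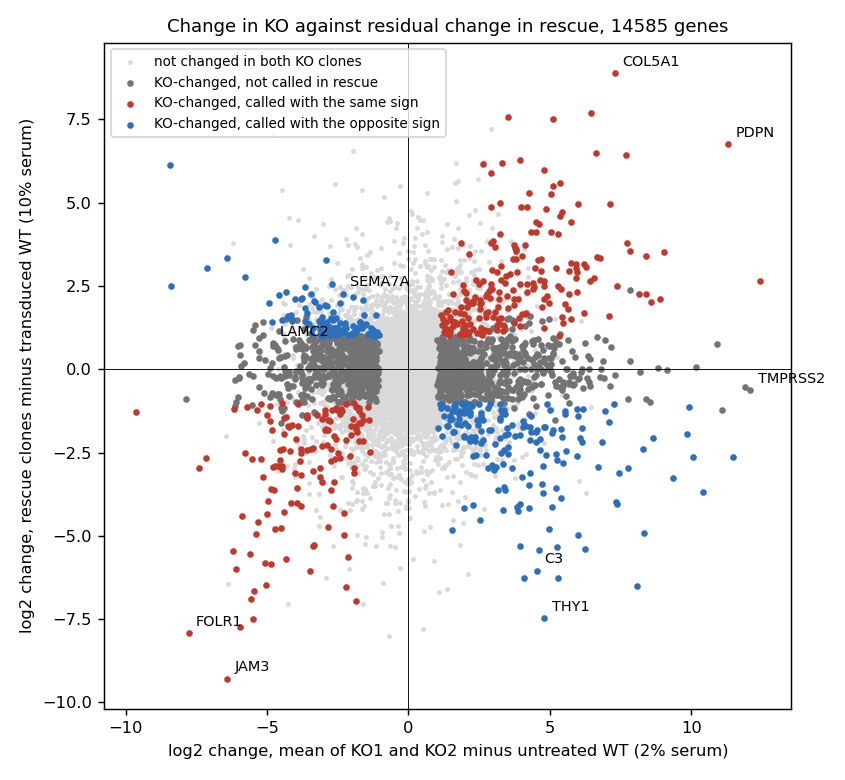
Each point is 1 of 14585 genes, with the log2 change of the KO clones against untreated WT (x axis, 2% serum) and of the rescue clones against the transduced WT lines (y axis, 10% serum). Red points are the 205 and 138 KO-changed genes called in rescue with the same sign, blue points the 169 and 104 with the opposite sign, and dark grey points those not called.

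Unrestored genes that were higher in KO included COL5A1, CDH11, AMPH, PDPN, MARK1 and NCAM1 from above. COL5A1 had 1873 to 3155 in the KO libraries and PDPN 1279 to 4942, and CDH11 and NCAM1 had 78.9 to 202 and 180.4 to 1997. Changes of COL5A1 in KO1 and KO2 were 6.95 and 7.65, and relative to KO its residual differed by 1.59 (adjusted p = 0.0479). PDPN was at 0 in untreated WT. TBX3, a T-box repressor, had 34.2 and 67.2 in Rescue1 and 297 and 359 in Rescue2 against 0 to 7.76 (median 1.4), a difference of 5.60 ± 0.55 (SE; adjusted p = 1.27e-06). THBS2, the matrix protein thrombospondin 2, had 2072 and 1869 in Rescue1 and 463 and 527 in Rescue2 against 19.6 to 62.7 (median 38.3), a difference of 4.71 ± 0.13 (SE; adjusted p = 1.82e-12). Both were above every transduced library in each clone, with higher values in Rescue2 for TBX3 and in Rescue1 for THBS2.

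Unrestored genes that were lower in KO included a folate receptor, a junction protein and the injury marker of the proximal tubule. Beside JAM3, FOLR1, PHYHD1 and ZNF667, HAVCR1 (chr5:157026742-157069396), the kidney injury molecule KIM-1, had 0 and 16.1 in Rescue1 and 4.57 and 6.68 in Rescue2 against 201 to 351 (median 302). Its difference was -5.84 ± 0.50 (SE; adjusted p = 3.09e-07), and -6.86 or -4.82 with 1 Rescue1 library left out. ABI3BP, an extracellular matrix protein, had 1.32 and 8.49 in Rescue1 and 15.6 and 24.1 in Rescue2 against 317 to 663 (median 596), a difference of -5.80 ± 0.38 (SE; adjusted p = 1.82e-08). HOGA1, a mitochondrial aldolase of hydroxyproline breakdown, had 1.02 and 0 in Rescue1 and 36.5 and 70.6 in Rescue2 against 306 to 429 (median 382), a difference of -5.45 ± 0.34 (SE; adjusted p = 1.05e-08). VAV3, a guanine nucleotide exchange factor, had 1.28 to 12.8 against 126 to 225 (median 159), a difference of -4.35 ± 0.37 (SE; adjusted p = 3.16e-07). The KO libraries of all 4 also lay below the transduced ones, with 42.9 to 61.3 for HAVCR1, 40.6 to 93.7 for ABI3BP, 0 to 35.3 for HOGA1 and 3.08 to 15.3 for VAV3.

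RefSeq promoter windows (GRCh38.p14) were found for 10 of these 16 unrestored genes. The 250 bases before the first listed transcription start are shown for 2 that stayed high and 2 that stayed low, because all 4 stayed on the KO side of the transduced lines and their start regions differ in CpG content. Every CG pair is in capitals. COL5A1 is on the plus strand at chr9:134641553-134641802, AMPH on the minus strand at chr7:38631374-38631623, ZNF667 on the minus strand at chr19:56477346-56477595 and HAVCR1 on the minus strand at chr5:157059117-157059366.
COL5A1: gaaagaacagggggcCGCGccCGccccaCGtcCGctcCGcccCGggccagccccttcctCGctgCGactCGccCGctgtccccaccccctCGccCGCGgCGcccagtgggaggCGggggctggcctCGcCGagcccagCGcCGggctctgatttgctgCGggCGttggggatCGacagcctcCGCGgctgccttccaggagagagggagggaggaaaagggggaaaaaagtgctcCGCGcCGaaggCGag
AMPH: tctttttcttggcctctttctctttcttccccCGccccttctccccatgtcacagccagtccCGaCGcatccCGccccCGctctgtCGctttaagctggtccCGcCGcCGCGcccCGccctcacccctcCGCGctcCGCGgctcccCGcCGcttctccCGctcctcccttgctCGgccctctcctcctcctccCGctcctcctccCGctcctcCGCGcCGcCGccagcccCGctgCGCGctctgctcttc
ZNF667: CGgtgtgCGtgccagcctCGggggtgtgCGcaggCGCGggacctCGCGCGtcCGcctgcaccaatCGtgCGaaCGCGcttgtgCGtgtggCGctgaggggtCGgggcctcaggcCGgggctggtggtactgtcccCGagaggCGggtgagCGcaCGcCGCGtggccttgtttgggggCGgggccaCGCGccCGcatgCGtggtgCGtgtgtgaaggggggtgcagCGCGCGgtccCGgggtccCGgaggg
HAVCR1: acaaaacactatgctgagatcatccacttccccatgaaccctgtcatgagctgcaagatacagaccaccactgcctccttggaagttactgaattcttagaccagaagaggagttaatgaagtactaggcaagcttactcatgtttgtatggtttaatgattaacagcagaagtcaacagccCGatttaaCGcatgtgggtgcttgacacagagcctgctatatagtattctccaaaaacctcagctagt

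The windows held 29 CG pairs at COL5A1, 28 at AMPH, 35 at ZNF667 and 2 at HAVCR1, where the median of 35116 windows of this length was 11. At least as many were present in 14.1%, 15.9%, 5.8% and 85.3% of all windows. Among the first listed windows of the other 6 genes the count ran from 1 (VAV3) to 14 (PDPN). High counts stood before genes that stayed high (COL5A1, AMPH) and before 1 that stayed low (ZNF667). A set of 4 motifs was searched on both strands, the octamer ATGCAAAT bound by OCT factors, the homeodomain core TAATTA, the E-box CACCTG and TATAAA. None was in the 4 windows shown. They occur in 1.63%, 4.35%, 17.5% and 10.7% of all windows. In the first listed windows of the other genes, TAATTA was found in that of VAV3, and TATAAA in those of PDPN, THBS2, ABI3BP and VAV3.

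KO-changed genes called against the transduced lines with the sign opposite to their KO change formed the opposite-sign group. Among those higher in KO, C3 (chr19:6677704-6730562), the central complement component, had 1277 and 845 in Rescue1 and 944 and 923 in Rescue2 against 54674 to 71378 (median 66134). All rescue libraries were below all transduced libraries, with a difference of -6.04 ± 0.08 (SE; adjusted p = 9.17e-16). KO libraries had 41316 to 113316, on both sides of the transduced range, and untreated WT had 2747 and 3286. CA12, a membrane carbonic anhydrase, had 8.15 to 18.7 against 159 to 256 (median 228), ASS1, the argininosuccinate synthase of the urea cycle, 20.4 to 33.6 against 351 to 477 (median 419), FCAMR, an Fc receptor for IgA and IgM, 0 to 3.56 against 96.5 to 167 (median 133), and NID2, a basement membrane nidogen, 0 to 7.95 against 54.6 to 187 (median 105). Their differences were -4.05, -4.06, -6.25 and -5.42, and NID2 ran from -6.08 to -4.76 with 1 Rescue2 library left out.

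Among opposite-sign genes lower in KO, ANKRD1, a stress and YAP responsive ankyrin protein, had 3759 and 3758 in Rescue1 and 2324 and 2361 in Rescue2 against 384 to 648 (median 580.4), a difference of 2.46 ± 0.13 (SE; adjusted p = 1.33e-09). SEMA7A, a membrane semaphorin, had 3395 and 3489 in Rescue1 and 4933 and 5058 in Rescue2 against 708 to 959.5 (median 896), a difference of 2.27 ± 0.14 (SE; adjusted p = 8.74e-09). FGF1, a fibroblast growth factor, had 494 to 720.4 against 106 to 192 (median 127). UHRF1, which recruits maintenance DNA methylation, had 1213 and 604 in Rescue1 and 627 and 459 in Rescue2 against 12.5 to 286 (median 76.1), and TYMS, the thymidylate synthase, 270.1 to 350.4 against 9.96 to 132 (median 16.1). Differences were 2.14, 3.28 and 3.87. In untreated WT, ANKRD1 had 1784 and 949.5, SEMA7A 3256 and 1592 and FGF1 796 and 441, all above the transduced lines.

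In the opposite-sign group the transduced lines stood away from untreated WT. The mean of the transduced lines lay within 1 log2 unit of untreated WT for 23 (13.6%) of the 169 genes higher in KO and 17 (16.3%) of the 104 lower, against 74.8% of all genes tested. For the unrestored genes it did so for 127 of 205 (62.0%) and 79 of 138 (57.2%). The rescue mean was nearer to untreated WT than the transduced mean was for 152 of the 169 (89.9%) and 98 of the 104 (94.2%), but for 10 of the 205 (4.88%) and 9 of the 138 (6.52%) unrestored genes. Untreated WT was also used to pick the KO-changed genes, so these shares are a description. The transduced mean lay within 1 log2 unit of untreated WT for 977 KO-changed genes, of which 206 were unrestored and 40 had the opposite sign. This restriction was chosen after seeing the data. Untreated WT enters both the restriction and the KO change, so the split is largely fixed by the choice and is a description. Transduced lines and untreated WT differ in serum, virus and selection, which cannot be told apart.

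**Figure D3:**
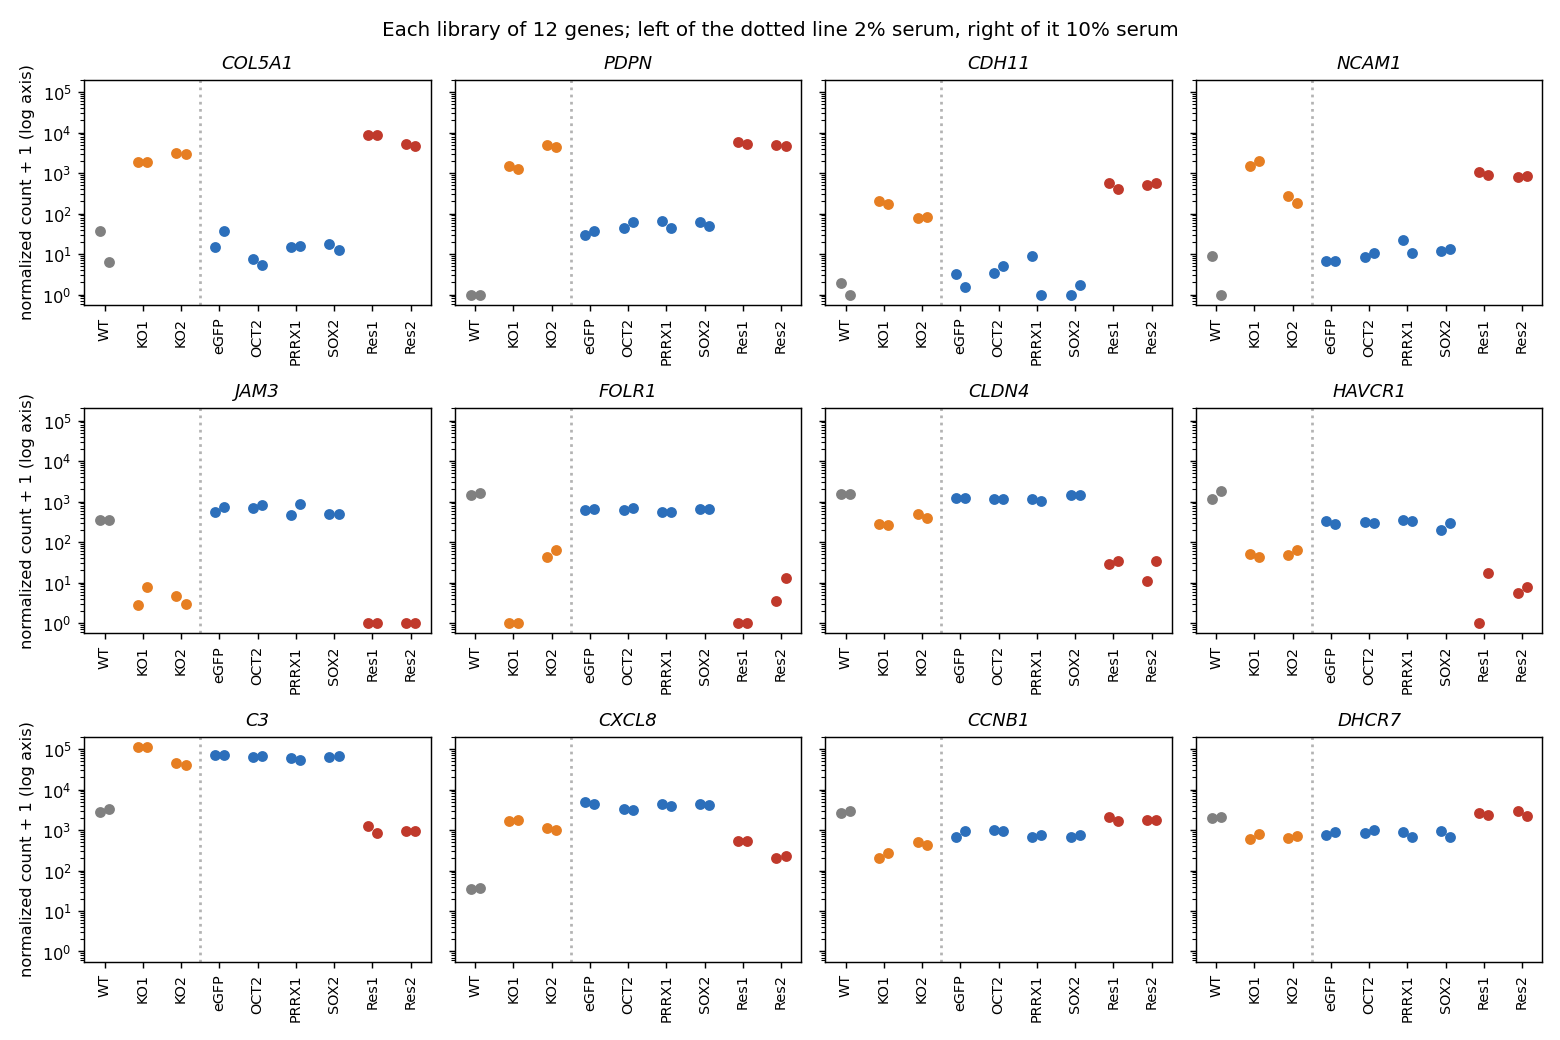
Normalized count + 1 (y axis, log scale) of each library for 12 genes, with the 2 libraries of a group side by side (grey untreated WT, orange KO clones, blue transduced WT lines, red rescue clones). In the top row the rescue and KO clones both sit above WT of either kind, in the middle row both sit below WT of either kind, and in the bottom row the transduced lines lie apart from untreated WT.

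Genes with the largest KO change and a small residual are the other side of the comparison. ITGA6, the α6 integrin, had 0 to 342 in the KO libraries. In rescue it had 1363 and 1354 in Rescue1 and 1447 and 1159 in Rescue2 against 644 to 994 (median 794), a difference of 0.74 ± 0.10 (SE; adjusted p = 3.29e-05) with an interval of 0.52 to 0.95, while untreated WT had 1125 and 1170. LSR, a tricellular junction receptor, had 298 to 833 against 507 to 747 (median 667). Rescue and transduced libraries overlapped for LSR and lay side by side without overlap for ITGA6. CDH3, P-cadherin, had 2.14 to 12.4 against 0 to 24.5 (median 9.34), so both were low, whereas untreated WT had 456 and 484.

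Of genes higher in KO, TMPRSS2, a transmembrane serine protease, had 3355 to 5698 in the KO clones and 395 and 333 in Rescue1 and 360.4 and 449.8 in Rescue2 against 383 to 1065 (median 575). The residual was -0.62 ± 0.15 (SE; adjusted p = 0.00342), under the fold threshold, although untreated WT was at 0. SNAP25, a synaptic vesicle fusion protein, had 391 to 655 in KO, 20.7 to 34.9 in rescue and 19.1 to 54.7 (median 31.6) in the transduced lines. DCLK3, a doublecortin-like kinase, had 51.1 to 202 in KO and was at 0 in all 12 libraries and in untreated WT. IL1A and IRAK3 had small residuals only as the mean of clones that differed. IL1A, the cytokine interleukin 1α, had 872 and 798 in Rescue1 and 275 and 328 in Rescue2 against 502 to 743 (median 616). IRAK3, an inhibitor of interleukin 1 receptor signalling, had 0 and 3.1 in Rescue1 and 305 and 258 in Rescue2 against 10.8 to 36.5 (median 23.2). GPRIN2, lower in KO, had 26.1 to 133 against 45.3 to 75.3 (median 53.6), with both Rescue1 libraries above and both Rescue2 libraries below the transduced range.

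Some genes differed in rescue although KO hardly changed them, with a log2 change under 0.5 in both KO clones. They made up 96 (9.90%) of the genes called higher and 148 (12.1%) of those called lower, while they were 3678 (25.2%) of all genes tested. FLNC, the actin crosslinker filamin C, had 6576 and 6371 in Rescue1 and 4915 and 4487 in Rescue2 against 1098 to 1569 (median 1321) and 1452 and 1627 in untreated WT, a difference of 2.06 ± 0.06 (SE; adjusted p = 3.28e-12). ADGRL2, the adhesion receptor latrophilin 2, had 173 and 193 in Rescue1 and 152 and 95.4 in Rescue2 against 1624 to 2023 (median 1913), a difference of -3.65 ± 0.09 (SE; adjusted p = 6.88e-13). Both stood apart from WT of either serum and from KO (1067 to 1445 and 1165 to 2020). SLC36A4, an amino acid transporter, and MYEOV were higher (109 to 159.8 against 14.3 to 33.1 (median 24.5), and 127 to 169.8 against 25.5 to 62.4 (median 35.3)), and FBXL16, an F-box protein, lower (1.75 to 8.39 against 61.5 to 243 (median 75.8)). KLF4, a Krüppel-like factor, had 0 to 72.6 against 255 to 411 (median 353). Its difference of -4.46 was no longer called against the eGFP line alone or without 1 Rescue2 library, where it was -3.24.

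RHOA (780.3 to 1012 against 142 to 297 (median 225)), RCC1L, SND1 (16.9 to 30.7 against 149 to 333 (median 222)) and WASF2 also met this rule. These genes, like TPI1, PGAM1, TYMS, UHRF1, EMC10, MTPN and PFDN6, may share reads with near-identical copies or alternate loci, so their levels are uncertain. RCC1L overlapped between the groups and lost its call, at 1.54 to 2.15, when any 1 of 7 single libraries was left out, namely Rescue1 replicate 1, either Rescue2 library or 1 library of each transduced line. WASF2 ran from -4.41 to -2.49 when 1 Rescue1 library was left out.

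Epithelial genes were read from lists whose members were chosen for their roles. The counts of this and the following lists stand beside 6.65% of all genes called higher and 8.36% called lower. Counts near these shares are no result about a list. Among 25 tested genes of epithelial adhesion and junctions, 2 were higher and 6 lower in rescue, with a median of -0.41 where the median of all genes was -0.01. CLDN4 (chr7:73799542-73832690), a tight junction claudin, had 28.0 and 33.1 in Rescue1 and 9.91 and 33.1 in Rescue2 against 1045 to 1471 (median 1201) and fell by 5.65 ± 0.20 (SE; adjusted p = 1.78e-11). MUC1, an apical mucin, had 4.31 and 8.55 in Rescue1 and 10.2 and 19.2 in Rescue2 against 49.0 to 218 (median 73.0), and PATJ, a polarity scaffold, 857 to 1139 against 2008 to 2432 (median 2169). CDH1, E-cadherin, was at the floor in rescue (0 to 0.778) and had 0 to 58.0 (median 39.6) in the transduced lines, so it was at least 10.7-fold lower, but the libraries overlapped and the call was lost against the eGFP line alone. It ran from -4.67 to -3.25 with 1 OCT2 library left out. EPCAM had 438 to 691 against 903 to 1037 (median 968), without overlap and under the fold threshold (-0.82). KRT8 (1.20) and DSC2, a desmosomal cadherin (5.90), were higher. Of the 12 KO-changed genes of this list, 6 were unrestored and none had the opposite sign. Over all KO-changed genes, 20.2% of those higher in KO and 16.5% of those lower were unrestored. The opposite sign was found in 16.7% and 12.4% of them.

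Of 19 proximal tubule genes tested, 2 were higher and 7 lower, with a median of -0.44. SLC17A3, an organic anion transporter, had 0 and 3.88 in Rescue1 and 8.14 and 5.55 in Rescue2 against 281 to 558 (median 362), a difference of -6.47 ± 0.45 (SE; adjusted p = 3.08e-08). DPP4, a brush border peptidase, had 0 to 43.0 against 53.1 to 309 (median 102), with a difference of -3.23 that was -2.18 or -4.27 with 1 Rescue1 library left out. SLC13A3, a dicarboxylate transporter, was higher (48.5 to 97.2 against 3.13 to 22.6 (median 14.2)). FOLR1 fell furthest. SLC17A3 had 0 to 33.5 in the KO libraries.

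Mesenchymal genes moved in both directions. Of 23 tested, 5 were higher and 4 lower (median -0.28, or -0.25 with floor genes at their bound), although 12 of the 23 were higher in KO. PDPN rose and THY1 fell furthest. TAGLN, an actin binding protein of smooth muscle, had 43376 and 43760 in Rescue1 and 33245 and 32899 in Rescue2 against 6118 to 8613 (median 7064), a difference of 2.41 ± 0.28 (SE; adjusted p = 6.57e-06), and MMP2, a gelatinase, 5268 to 8227 against 1848 to 2832 (median 2275), a difference of 1.56 ± 0.28 (SE; adjusted p = 0.00037). Untreated WT libraries of TAGLN and MMP2 were themselves far apart (21533 and 4122, and 3064 and 599). DCN, the matrix proteoglycan decorin, had 611 and 578 in Rescue1 and 363 and 398 in Rescue2 against 1485 to 3121 (median 1904), while its KO libraries reached 94978 to 234809. VCAN, the proteoglycan versican, had 17526 to 21117 against 45054 to 52954 (median 47622) and was lower, with a difference of -1.32 ± 0.03 (SE; adjusted p = 9.17e-14). FN1, fibronectin, did not pass the test (505666 to 633366 against 605359 to 752935 (median 708394), difference -0.28).

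Of 12 EMT transcription factors tested, 3 were higher and 1 lower. TBX3, FOXF2 (198 to 389 against 18.0 to 31.6 (median 26.5)) and TWIST2 (14.8 to 32.0 against 0 to 3.99 (median 0.962)) stayed up, and SNAI2 was lower (107 to 175 against 337 to 496 (median 423), -1.61 ± 0.24 (SE; adjusted p = 9.2e-05)). ZEB1 and ZEB2 did not reach the fold threshold (-0.40 and -0.89). Of 26 collagens, 4 were higher and 8 lower, the higher ones being COL5A1, COL6A1, COL6A2 and COL6A3. Only 4 of the 8 lower ones had no overlap between the groups. COL6A2, a chain of type VI collagen, had 14645 and 14206 in Rescue1 and 15057 and 15096 in Rescue2 against 3152 to 3827 (median 3503). COL6A3, another chain, had 469 and 443 in Rescue1 and 16213 and 14800 in Rescue2 against 65.8 to 142 (median 113), and the clones differed by -5.08 (adjusted p = 2.82e-08) in Rescue1 minus Rescue2. COL4A4, a basement membrane chain, was lower (0.881 to 13.2 against 39.1 to 118 (median 87.0)). With line means as replicates, 5 collagens were lower. The lower calls of COL4A3 and COL16A1 were lost when any 1 of several libraries was left out, and that of COL14A1 without Rescue2 replicate 2.

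Of 24 chemokines and cytokines tested, 12 were lower and 1 higher, each without overlap between the groups. The list median was -0.97, or -0.49 with floor genes at their bound. CXCL12, a lower chemokine (-1.13), lost its call when any 1 of the 4 rescue libraries was left out. CSF3, a granulocyte growth factor, fell furthest, from 20.5 to 72.0 (median 49.8) in the transduced lines to at most the floor in rescue (0 to 1.39, at least 16.0-fold lower). CXCL8 (chr4:73740519-73743716), interleukin 8, had 537 and 522 in Rescue1 and 204 and 222 in Rescue2 against 3190 to 4817 (median 4238), a difference of -3.58 ± 0.10 (SE; adjusted p = 1.2e-12). CXCL2, a neutrophil chemokine, had 54.6 and 58.7 in Rescue1 and 64.3 and 42.6 in Rescue2 against 1176 to 1343 (median 1282), and IL6, interleukin 6, 642 to 1382 against 3338 to 4693 (median 4216). CCL2, a monocyte chemokine, was the 1 higher gene, with 2842 and 2974 in Rescue1 and 1674 and 1913 in Rescue2 against 277 to 371 (median 318) and a difference of 2.84 ± 0.14 (SE; adjusted p = 1.03e-09). Of the 14 genes of this list higher in KO, 11 were lower in rescue than in the transduced lines, and the untreated WT levels of CXCL8 (33.9 and 36.2), CXCL2 (21.4 and 26.1) and IL6 (964 and 599) were below those of the transduced lines.

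Of 17 complement genes, 6 were called lower, C3 among them and 3 of the 6 without overlap, and 1 higher (median -0.59, or -0.34 with bounds). C4B, a C4 isotype with a near-identical copy, and C5AR1, the C5a receptor, were among the 6 and lost their calls when any 1 of 6 and any 1 of 8 libraries was left out, for C5AR1 each rescue library. C1R, a C1 protease (-2.63), lost its call with line means as replicates. Of 18 genes of the serum response, 5 were lower and none higher. FOSB, a partner of FOS in AP-1, had 41.6 and 107 in Rescue1 and 139 and 175 in Rescue2 against 3955 to 6693 (median 5901), ATF3, a stress factor, 541 to 713 against 1615 to 3182 (median 2248), and IER3 232 to 299.7 against 729 to 936 (median 825). Serum was 10% in both groups, and untreated WT in 2% serum had 36.1 and 9.52 for FOSB. DDIT3, the stress factor CHOP, was the only 1 of 19 genes of unfolded protein and amino acid stress called, lower at 389.7 to 441 against 1158 to 1863 (median 1573).

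Interferon-stimulated genes were split, with 7 of 31 higher and 3 lower and a median of 0.05. SAMD9, an antiviral factor, had the largest rise, with 0 and 159 in Rescue1 and 100.4 and 84.7 in Rescue2 against 0 to 44.1 (median 0). Its libraries overlapped, and its difference of 4.42 ran from 2.58 to 6.25 and lost its call without Rescue1 replicate 2, either Rescue2 library or SOX2 replicate 2. ISG15, a ubiquitin-like modifier, had 604 and 625 in Rescue1 and 476 and 451 in Rescue2 against 120.4 to 156 (median 141), a difference of 1.95 ± 0.10 (SE; adjusted p = 6.35e-10), and OAS2, an RNA sensor, 85.8 to 167 against 14.4 to 54.3 (median 25.5). XAF1, an apoptosis factor, was lower and at the floor in rescue (3.64 to 39.1 (median 24.9) in the transduced lines, at least 7.56-fold). Of 15 genes of MHC class I presentation, 1 was higher and none lower. That gene, HLA-B, is highly polymorphic and its near-identical relatives share reads, so its level is uncertain.

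Growth factors and their antagonists had 6 of 31 genes higher and 3 lower (median 0.22). NOG, the BMP antagonist noggin, had 481 and 414 in Rescue1 and 523 and 548 in Rescue2 against 67.3 to 116 (median 90.4), a difference of 2.40 ± 0.14 (SE; adjusted p = 6.26e-09), and PDGFB, a platelet-derived growth factor, 3065 to 3320 against 893 to 1278 (median 1021). GREM1, the BMP antagonist gremlin, had 819 to 1147 against 0 to 199 (median 179), and its difference of 3.56 ran from 2.72 to 4.40 without 1 PRRX1 library and lost its call against the eGFP line alone. WNT2 had 615 and 681 in Rescue1 and 42.2 and 55.8 in Rescue2 against 20.8 to 34.6 (median 28.0) and IGF2 308 and 241 in Rescue1 and 2054 and 2189 in Rescue2 against 4075 to 5898 (median 4483), so both depended on the clone. Of 18 direct TGF-β targets, 3 were higher and 5 lower. ID2 and ID3, inhibitors of differentiation, had 0 to 3.37 against 19.2 to 92.5 (median 67.9) and 12.7 to 67.1 against 108 to 260.1 (median 219).

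Of 30 cell cycle genes tested, 11 were called higher, 1 lower and 18 in neither direction, with a median of 0.96, whereas 19 were lower in KO and none higher. CCNA2, cyclin A2, had 854 and 303 in Rescue1 and 1139 and 1057 in Rescue2 against 0 to 253 (median 77.3), and its difference of 3.78 ran from 3.03 to 4.53 with 1 eGFP library left out. RRM2, a ribonucleotide reductase subunit, was among the 11 (1.99) and lost its call when any 1 of 10 libraries was left out, each of the 4 rescue libraries included. CCNB1, cyclin B1, had 2045 and 1695 in Rescue1 and 1776 and 1788 in Rescue2 against 666 to 1008 (median 749), a difference of 1.21 ± 0.10 (SE; adjusted p = 2.4e-07). AURKA, a mitotic kinase, had 1575 to 1775 against 682 to 831 (median 760.3), and MCM5, a subunit of the replicative helicase, 898 to 1261 against 281 to 565 (median 385). Untreated WT had 2712 and 3033 for CCNB1, above both. TOP2A, topoisomerase IIα, was the 1 lower gene (8.77 to 20.8 against 54.9 to 124 (median 86.9)). MKI67, the proliferation antigen Ki-67, had 3175 to 3541 against 1556 to 2320 (median 1865) and did not reach the fold threshold (0.84).

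Of 23 sterol synthesis genes tested, 8 were called higher and 1 lower (median 0.85), and 11 of the 23 were lower in KO. MSMO1, a sterol demethylation enzyme, was among the 8 (1.66) and lost its call when any 1 of 9 libraries was left out, each of the 4 rescue libraries included. DHCR7, the last enzyme of cholesterol synthesis, had 2665 and 2399 in Rescue1 and 3019 and 2223 in Rescue2 against 673 to 1011 (median 870.2), a difference of 1.63 ± 0.12 (SE; adjusted p = 6.2e-08), and FDPS, farnesyl diphosphate synthase, 3581 to 4281 against 1531 to 1750 (median 1622). SREBF2, the sterol-sensing transcription factor, was the lower gene (79.5 to 191 against 379.9 to 600.2 (median 476)). Of 19 p53 targets, 5 were higher and 1 lower (median 0.75). RRM2B, a ribonucleotide reductase subunit, had 2150 and 2307 in Rescue1 and 2287 and 2347 in Rescue2 against 724 to 934 (median 832), and GDF15, a stress cytokine, was the lower one (1377 to 1935 against 2861 to 4518 (median 4335)). With equal library totals the median of all genes rose to 0.09.

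**Figure D4:**
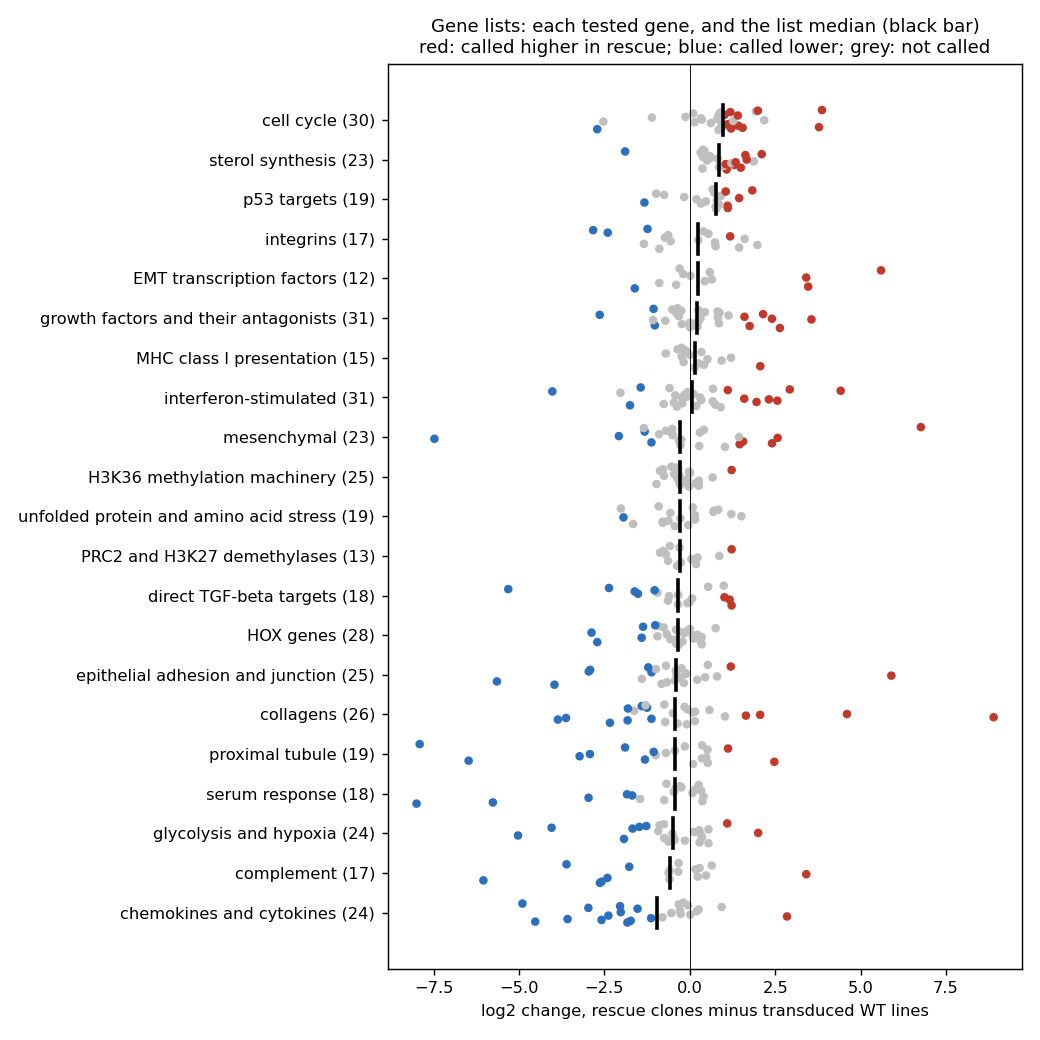
Log2 change of rescue clones against transduced WT lines (x axis) for each tested gene of 21 lists, whose names carry the number tested, with red for genes called higher, blue for genes called lower, grey for genes not called and a black bar at the list median. Cell cycle and sterol synthesis have medians of 0.96 and 0.85, and chemokines and cytokines of -0.97.

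Of 25 genes of H3K36 methylation and its readers, 1 was higher and none lower. Of 13 genes of PRC2 and H3K27 demethylation, 1 was also higher and none lower, beside 6.65% and 8.36% of all genes. In both it was PHF19, a PRC2 subunit that reads H3K36me3. SETD2, itself called higher in rescue, was not counted among the 25. PHF19 had 452 and 337 in Rescue1 and 543 and 403 in Rescue2 against 114 to 263 (median 189.7), a difference of 1.22 ± 0.18 (SE; adjusted p = 7.56e-05), with 687 and 749.5 in untreated WT and 179.6 to 239 in KO. EZH2, the methyltransferase of PRC2, had 758 to 851 against 606 to 768 (median 721) and was not called. Of 28 HOX genes, 5 were lower and none higher, with the largest fall in HOXB13 (0 to 5.3 against 5.26 to 28.5 (median 14.5), -2.88), whose libraries overlapped. HOXD11 (-1.01) lost its call under equal library totals and without replicate 1 of Rescue1, Rescue2, OCT2 or SOX2.

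Glycolysis and hypoxia genes had 2 of 24 higher and 6 lower (median -0.50), led by TPI1 (-5.03) and PGAM1 (2.00), whose levels are uncertain. The other higher gene, ANKRD37, a hypoxia-induced gene (1.09, adjusted p = 0.0496), lost its call when any 1 of 10 libraries was left out, with line means and with the replicate block. Lower genes included PDK1, a brake on pyruvate oxidation (247 to 337 against 820.5 to 1096 (median 955)), and BNIP3, a mitophagy receptor (1205 to 1398 against 3071 to 4102 (median 3660)). Of 17 integrins, 1 was higher, ITGB1 (4012 to 5430 against 1724 to 2575 (median 2156)), and 3 lower. ITGB6, an epithelial integrin chain, fell furthest (0 and 23.1 in Rescue1 and 39.7 and 35.1 in Rescue2 against 15.3 to 397 (median 88.4)). Its libraries overlapped, and its difference of -2.83 was -1.68 without Rescue1 replicate 1 and -3.98 without Rescue1 replicate 2, the call being lost in the former and without any 1 of 8 other libraries, Rescue2 replicate 1 and 2 among them. Of 11 tested genes from the study's own EMT and effector set, which was picked on libraries of this series and is no independent evidence of direction, 3 were higher and 2 lower. The higher ones were SETD2 itself, OAS2 and PLAT, the tissue plasminogen activator (5399 and 4797 in Rescue1 and 2470 and 2713 in Rescue2 against 1281 to 1688 (median 1471)). The lower ones were SALL1, a kidney progenitor factor (1298 to 1659 against 3067 to 4542 (median 4094)), and PRRX1, which was high in the PRRX1 line alone, through its own transgene. The calls of SETD2 and PRRX1 follow from the constructs.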

How the data were processed

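RNA-seq libraries of 22 RPTEC samples in 11 groups of 2 were read from 1 table of 36859 genes, and 12 libraries in 10% serum form the comparison. The values deposited by the authors are log2 values, made with Salmon 1.9.0 and DESeq2 1.26.0 on Ensembl 94 cDNA of GRCh38. All libraries share the lowest value (11.32), as variance-stabilized values do, and inverting that transformation gave normalized counts. Whole reads were not recovered (6.8% to 14.7% of low values lay within 2% of a multiple of 1 step, 4% by chance). Read depth and its counting error could therefore not be taken from these values. The study summarizes sequencing depth separately.

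All 22 libraries entered 1 limma fit (limma 3.58.1, R 4.3.3, variance trend) on log2(normalized count + 1) with a mean per group. It covered the 14585 genes that reached 10 normalized counts in 2 or more libraries. The fit was run beforehand on simulated libraries without line or clone effects, so that run cannot vouch for the calls made here. Adjusted p-values are Benjamini-Hochberg over all genes. Replicate numbers do not pair libraries. Members, lists and the naming rules were chosen with earlier results of these data known. Named genes were the 10 largest rises and falls without overlap, the 8 unrestored and 5 opposite-sign KO-changed genes per direction, 5 per direction with little KO change, 5 per direction with large KO change and a residual interval within -1 to 1 (protein-coding, mean of at least 100 in the higher group, transgenes left out), and examples of each list. Some genes that these rules name are not reported here. Positions are from GENCODE 44, which holds 33878 of the genes. Alternatives changed the pseudocount (0.5, 5), filter, normalization, comparator, replicate unit and libraries.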

Additional observations from a re-analysis of the deposited data

Results flagged for a closer look

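Several genes named above had a library that stood apart from the others of its group by Dixon's test on log2(normalized count + 1), given here with the gap over the group's range. Chance alone does this in about 1 of 20 groups. In the transduced lines, SOX2 replicate 1 was lowest for ABI3BP (316.7, 0.562) and HAVCR1 (201.0, 0.632) and alone above 0 for SAMD9 (44.1, 1). PRRX1 replicate 2 was lowest for DDIT3 (1158, 0.545), GDF15 (2861, 0.613) and GREM1 (0, 0.873) and highest for MUC1 (218, 0.632). The eGFP replicate 2 was lowest for CCNA2 (0, 0.616), eGFP replicate 1 was highest for ZNF667 (584, 0.593) and lowest for ANKRD37 (1.69, 0.572), SOX2 replicate 2 was lowest for C1R (4.73, 0.594), and OCT2 replicate 2 was highest for TYMS (132, 0.695). In rescue, Rescue1 replicate 1 was lowest for ITGB6 (0, 0.859) and SAMD9 (0, 0.876), Rescue1 replicate 2 for THY1 (5.45, 0.954), Rescue2 replicate 1 for CLDN4 (9.91, 0.856) and TEK (0, 0.878) and Rescue2 replicate 2 for POU2F2 (337, 0.865).

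The rescue clones differed from one another at a number of named genes, tested as Rescue1 minus Rescue2 in the same fit. COL6A3 differed by -5.08 (adjusted p = 2.82e-08), EMC10 by -3.41 (adjusted p = 5.43e-08), FOLR1 by -2.78 (adjusted p = 0.00289), HOGA1 by -5.19 (adjusted p = 8.15e-05), IGF2 by -2.96 (adjusted p = 0.000647) and IRAK3 by -7.12 (adjusted p = 2.73e-05), all higher in Rescue2. COL4A4 differed by 1.88 (adjusted p = 0.00796), CXCL8 by 1.31 (adjusted p = 0.000238), GPRIN2 by 2.13 (adjusted p = 0.000302), IL1A by 1.47 (adjusted p = 0.000367), THBS2 by 1.99 (adjusted p = 9.48e-05) and WNT2 by 3.71 (adjusted p = 4.37e-05), all higher in Rescue1. Of the unrestored genes, 9 of the 205 higher in KO and 20 of the 138 lower differed between the clones, against 0.994% of all genes. Of the KO-changed genes with an interval within -1 to 1, 9 of 338 and 4 of 302 did.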

How the results depend on the processing

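Testing only genes with a mean of at least 50 normalized counts left 1265 genes for rescue against the transduced lines, 1304 for Rescue1, 1147 for Rescue2 and 221 unrestored genes, from fewer genes tested. The deposited log2 values compress differences at low and also at higher counts, ADGRL2 for example from -3.65 to -0.85. On them the same fold threshold gave 29, 32 and 30 genes, 3 unrestored, 6 of opposite sign and 70 that came closer to WT. With KO-changed genes defined from KO1 alone, 3653 in place of 1849, 522 were unrestored, 426 of opposite sign and 2281 closer to WT, and from KO2 alone (2378) 432, 331 and 1704. An alternative chosen after seeing the data kept the 977 KO-changed genes with transduced WT within 1 log2 unit of untreated WT. There the numbers were 206, 40 and 713. With 1 library left out, genes called ran from 1937 to 2189 for rescue, 1492 to 2002 for Rescue1 and 1232 to 1754 for Rescue2, unrestored genes from 291 to 344, opposite-sign genes from 224 to 271 and genes closer to WT from 1235 to 1456. None of the up to 196 named or called genes run under each alternative changed direction.

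For rescue versus transduced WT the replicate block gave 2161 genes. Deviations of replicate 1 from its group mean correlated between groups at a median of -0.0109 over 55 pairs of groups. The replicate numbers were therefore not taken to pair the libraries. With line means as replicates 1919 genes were called, with a correlation of 0.111 estimated within lines 2025, and with unadjusted p 2505. Equal library totals gave 2236 genes, 51.6% of them higher against 44.3%. Of 196 genes named or called on a list, 32 lost their call against the eGFP line alone. Read depth, which was not recovered from the values, limits genes near the floor, and 2 clones limit what holds for rescue in general.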

Other observations

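The 13 protein-coding mitochondrial transcripts had a median difference of -0.69 in rescue against the transduced lines, -0.66 in Rescue1 and -0.73 in Rescue2, whereas autosomes had medians between -0.18 (chromosome 13) and 0.06 (chromosome 22). In windows of 20 Mb with at least 20 tested genes, 5 of 153 had a median beyond 0.25 in the same direction in both clones. The largest in Rescue1 was 20 to 40 Mb on chromosome 15, where 80 genes had medians of -0.54 in Rescue1 and -0.43 in Rescue2, and of 0.26 and 0.21 in KO1 and KO2 against untreated WT.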
